A study of Mus musculus with 6 samples.

Results

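Dntt, Rag1, Vpreb1 and Vpreb2 are genes that developing B cells use while they assemble their antigen receptor. They were taken from the deposited count table by symbol, which found all 4 of them among its 9295 genes. The table holds 6 libraries of RNA from bone marrow of mice with acute myeloid leukemia, a cancer of myeloid blood precursors. By genotype label, 3 libraries (Con) are PAPOLA flox/flox and 3 (KO) are PAPOLA KO, and all 6 are labelled as leukemia. Papola encodes a poly(A) polymerase, and the series was set up to ask what it does in this leukemia. The sources used here do not give the Cre driver, the strain and age of the mice, how the leukemia was raised or whether cells were sorted. Nothing in the labels says that the 3 libraries of a group came from separate mice, so each p-value speaks of the spread among these 6 libraries only, and that spread may be technical.

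B and T lymphocytes build their receptor genes by V(D)J recombination, in which the RAG1 and RAG2 proteins cut the DNA beside gene segments and the end joining machinery seals the cuts. Terminal deoxynucleotidyl transferase, the product of Dntt, adds bases at the joints without a template and so diversifies the receptors. In the B lineage, a newly made heavy chain is first displayed with a surrogate light chain, made of a VpreB protein (from Vpreb1 or Vpreb2) and the product of Igll1, and this pre-B cell receptor tells the cell that its heavy chain works. In healthy marrow these genes mark precursors and are shut off in mature B cells. Rag1, Rag2 and Dntt are also used by thymocytes, the T cell precursors of the thymus.

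All 4 genes were nearly silent in Con and higher in KO, where each of the 3 KO values lay above each of the 3 Con values. Such a pattern was common in these data, and the shares given next are the background for each gene list below. Among the 8358 tested genes, 82.0% had an adjusted p under 0.05 in either direction (quasi-likelihood test of edgeR), 39.6% were called higher in KO, 42.4% lower, and in 40.5% all KO values lay above all Con values. The size of the difference was less common: 134 tested genes had a log2 fold change at least as high as Vpreb1, 86 at least as high as Rag1 and 44 at least as high as Dntt. Bulk RNA cannot tell more cells of a type from more RNA per cell, and this holds for every result here.

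Column totals were 11253932 to 11436216 counts in Con and 8875022 to 9768143 in KO, and the table holds 42.1% of RefSeq's mouse protein-coding genes. Across genes, log2 CPM correlated at 0.985 or more within groups and at 0.721 or less between them. Con replicates 2 and 3 were far more alike than the rest, with a chi-square per degree of freedom of 1.68 against 17.7 to 23.7 for each other pair within a group, and were kept as 2 samples. The count of Papola over the whole gene did not fall in KO (Con 290.8 ± 6.42 CPM, KO 339.2 ± 23.8 CPM, SD, n = 3). It was called higher there (log2 fold change 0.22, SE 0.08, edgeR, adjusted p = 0.0291). Counts over the deleted part were not analysed here, so this gene does not check the labels. Directions are therefore those of the libraries labelled KO against those labelled Con. The late neutrophil markers summed to 183960 to 213620 CPM in KO and 8332 to 9518 in Con, and the erythroid markers to 18950 to 26610 and 906 to 1150 CPM. Genes listed as leukemia progenitor markers were present in both groups (1224 to 1310 CPM in Con, 4996 to 6679 CPM in KO). No healthy marrow was compared, so their presence does not check the labelled leukemia. Mpo alone gave 2239 to 2876 CPM of the KO sum, while Kit, Gata2, Hoxa9 and Hoxa10 of this list were called lower in KO. The part that cell makeup has in the results below was not tested.

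**Figure D1:**
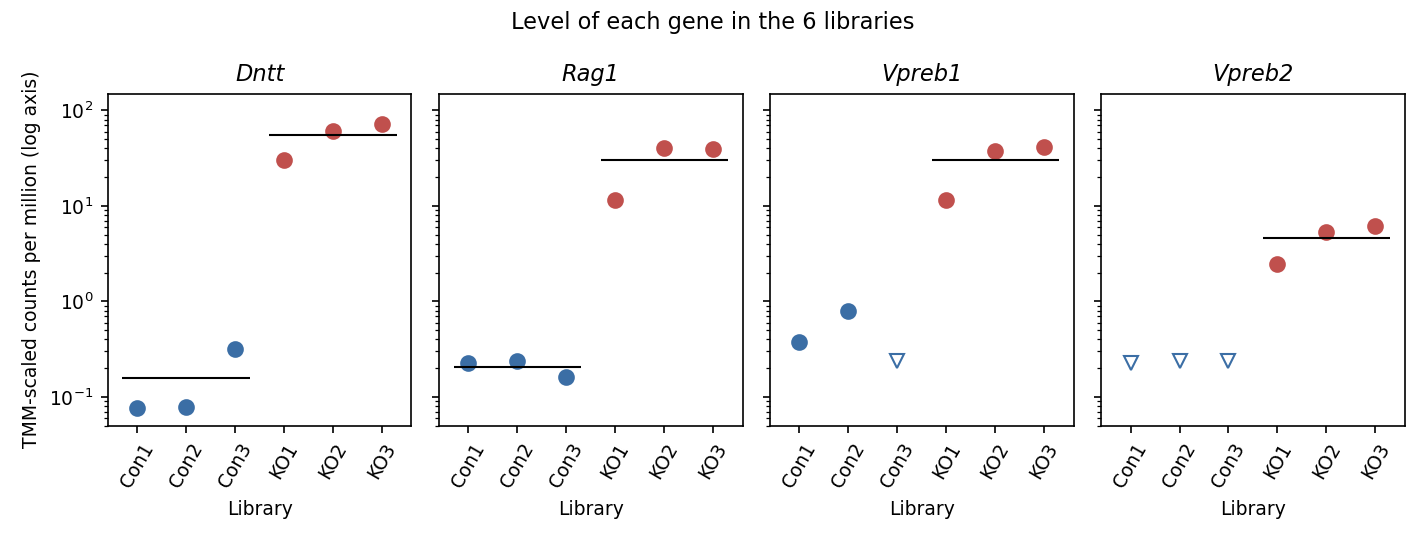
Level of Dntt, Rag1, Vpreb1 and Vpreb2 in each library, in CPM (counts per 1000000 of the TMM-scaled library total) on a log axis; blue, Con; red, KO; lines, group means where every library has a count; open triangles, libraries with no count, drawn at the level of 3 counts. In each gene the 3 KO points lie above the Con points, and KO replicate 1 is the lowest KO point.

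Dntt (gene ID 21673) had 1, 1 and 4 counts in Con replicates 1, 2 and 3, and 256, 496 and 563 counts in KO replicates 1, 2 and 3. After TMM scaling (a scaling of library totals that limits the pull of a few very abundant genes) these are 0.0758, 0.0786 and 0.320 CPM (counts per 1000000 of the TMM-scaled library total) against 29.9, 61.2 and 72.4 CPM. The lowest KO library was thus 93.5 times the highest Con library, and the groups did not overlap. The log2 fold change was 8.34 (SE 0.55, edgeR, adjusted p = 1.047e-06). Because Con replicate 3 holds 4 of the 6 Con counts, the value was 9.26 without it.

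Rag1 (gene ID 19373), the catalytic subunit of the recombinase, had 3, 3 and 2 counts in Con and 98, 329 and 306 counts in KO. These are 0.227, 0.236 and 0.160 CPM against 11.5, 40.6 and 39.4 CPM. KO replicates 2 and 3 were nearly level, and KO replicate 1 stood at 0.286 of their mean but still at 48.6 times the highest Con library. The log2 fold change was 7.11 (SE 0.68, edgeR, adjusted p = 1.174e-05). Rag2, which encodes the partner subunit and lies outside the 4 genes, had 0 to 0.157 CPM in Con and 1.52, 6.04 and 5.92 CPM in KO (log2 fold change 5.64, SE 0.81, edgeR, adjusted p = 0.000144).

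Vpreb1 (gene ID 22362) had 5, 10 and 0 counts in Con and 98, 305.42 and 318.41 in KO, or 0.379, 0.786 and 0 CPM against 11.5, 37.7 and 41.0 CPM. Its Con libraries differed among themselves, since 10 of the 15 Con counts came from Con replicate 2 and none from Con replicate 3. The lowest KO library was 14.6 times the highest Con library. The log2 fold change was 6.22 (SE 0.71, edgeR, adjusted p = 3.63e-05), and 7.20 without Con replicate 2. Over all counts of a group, the KO to Con ratio was 75.6, with an exact 95% interval of 45.5 to 136 that covers counting error only.

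Vpreb2 (gene ID 22363) had no count in any Con library and 21, 43.58 and 47.59 counts in KO, or 2.45, 5.38 and 6.12 CPM. A count of 0 allows up to 0.227 to 0.240 CPM in these Con libraries (3 counts per library). Against 3 counts over the whole Con group, Vpreb2 was at least 59.2-fold higher in KO (edgeR, adjusted p = 5.85e-05). It had the fewest counts of the 4 genes in each KO library.

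The 2 surrogate light chain genes are near copies, which bears on how far their counts can be told apart. Their coding sequences in the GENCODE M21 transcripts (GRCm38) are 426 bases each and differ at 9 positions (97.9% identical), with an identical run of 196 bases. The stretch below, coding bases 298 to 387 of each, is shown because it holds 5 of the 9 differences, printed in capitals.
Vpreb1: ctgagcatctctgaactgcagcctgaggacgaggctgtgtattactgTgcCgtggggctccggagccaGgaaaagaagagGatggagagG
Vpreb2: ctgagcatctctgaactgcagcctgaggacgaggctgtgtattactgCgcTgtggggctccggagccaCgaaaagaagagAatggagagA
Counts that are not whole were found for both genes, and the cause was not tested. In KO replicates 2 and 3 neither gene had a whole count, yet the 2 together summed to exactly 349 and 366 counts, so the parts of a count missing from one gene were found in the other. KO replicate 1 had whole counts of 98 and 21, which sum to 119. Vpreb2 took 17.6%, 12.5% and 13.0% of the summed counts in KO replicates 1, 2 and 3, and 0 of 15 in Con. The sum does not depend on the division. Its level was 0.388 ± 0.393 CPM in Con against 34.7 ± 18.1 CPM for KO libraries (SD, n = 3), with a log2 fold change of 6.43 (SE 0.69, edgeR, adjusted p = 2.46e-05, a fit added after the split counts were seen).

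Igll1 and Vpreb3, the nearest relatives of these genes in the pre-B cell receptor list, were measured as well. Igll1, which encodes the other chain of the surrogate light chain, had 0.152, 0.157 and 0.0800 CPM in Con and 5.61, 26.0 and 35.5 CPM in KO (log2 fold change 7.29, SE 0.92, edgeR, adjusted p = 7.01e-05). Vpreb3, which encodes a further VpreB-like protein, had 0.303, 0.236 and 0.640 CPM in Con and 3.97, 22.8 and 17.8 CPM in KO (5.20, SE 0.74, edgeR, adjusted p = 0.000159). Both had their lowest KO value in replicate 1, as the 4 genes did, and neither overlapped between groups.

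Levels of different genes can be compared only per length, and coding length was used for this. In KO, Vpreb1 stood highest of the 4 with 26.9, 88.4 and 96.2 CPM per kb of coding sequence in replicates 1, 2 and 3. Dntt followed with 18.8, 38.5 and 45.6 CPM per kb. Vpreb1 was above Dntt within each KO library, but the ranges over libraries overlapped. Vpreb2 (5.76, 12.6 and 14.4 CPM per kb) and Rag1 (3.67, 13.0 and 12.6 CPM per kb) came last, with Rag1 the higher in replicate 2 and Vpreb2 in replicates 1 and 3. They did not differ beyond their spread on this scale. Per kb of whole transcript, where Rag1 with its long untranslated part is divided by 6608 bases, Vpreb2 was above Rag1 in each KO library (3.23, 7.08 and 8.07 against 1.73, 6.14 and 5.96 CPM per kb). In Con the per-length levels rested on 0 to 10 counts a library and their order is not given.

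**Figure D2:**
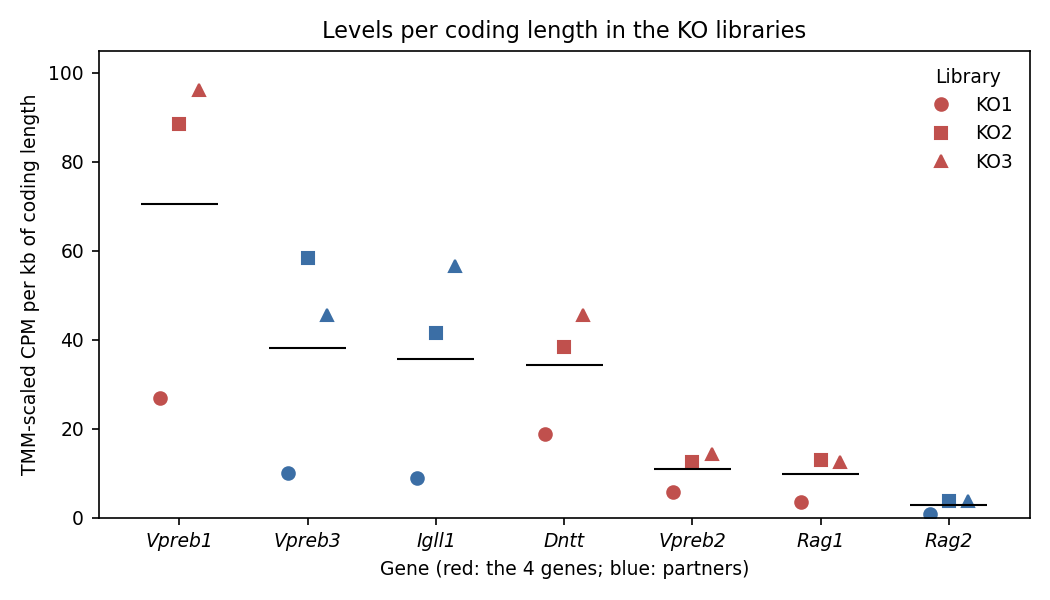
TMM-scaled CPM per kb of coding length in the 3 KO libraries, for the 4 genes (red) and 3 partner genes (blue); symbols, libraries; lines, means. Vpreb1 has the highest mean (70.5) and Rag2 the lowest (2.84), and KO replicate 1 is the lowest point of every gene.

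The KO libraries did not carry these genes evenly. KO replicate 1 held Dntt at 0.448, Rag1 at 0.286, Vpreb1 at 0.291 and Vpreb2 at 0.427 of the mean of KO replicates 2 and 3. On a log2 scale (CPM plus 0.1) the differences were -1.16, -1.79, -1.77 and -1.20. Over all tested genes the same measure had a median of 0.00 and a middle range (25th to 75th percentile) of -0.17 to 0.16, and 1.53%, 0.407%, 0.431% and 1.3% of tested genes were as low in KO replicate 1 as Dntt, Rag1, Vpreb1 and Vpreb2. KO replicates 2 and 3 were close, with ratios of 3 to 2 between 0.970 for Rag1 and 1.18 for Dntt. One library against 2 allows no test, so this is a description. The coefficient of variation over KO was 40.4% for Dntt, 54.1% for Rag1, 53.9% for Vpreb1 and 41.7% for Vpreb2, against a median of 12.0% over tested genes.

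Some other B lineage genes were low in KO replicate 1 as well. Igll1, Vpreb3 and Rag2 stood at -2.44, -2.32 and -1.91 in KO replicate 1 relative to replicates 2 and 3. Cd79b, a signalling subunit of the B cell receptor, stood at -1.19 and Ms4a1, which encodes CD20, at -1.36. It was not found in each B lineage gene, since the median was -0.24 over the pre-B cell receptor list without Vpreb1 and Vpreb2, -0.16 over the transcription factors and -0.61 over the mature B cell markers. Among T cell genes Cd3d was at 0.07, Cd4 at -0.53 and Cd28 at -1.27 (list median -0.30). Siglech, a receptor of plasmacytoid dendritic cells, was at -0.22 (list median -0.35). The macrophage markers had a median of -0.57, near that of the mature B cell markers, so low values in KO replicate 1 were not particular to B lineage genes. The late neutrophil markers were highest in KO replicate 1 (213620 CPM against 188550 and 183960) and the erythroid markers lowest (18950 CPM against 25796 and 26610). The column total of KO replicate 1 was 9768143 counts, against 9007500 and 8875022 in KO replicates 2 and 3. The part of these marker differences in the values of the 4 genes was not tested. Without KO replicate 1 the log2 fold changes were 8.64 for Dntt, 7.51 for Rag1 and 6.61 for Vpreb1.

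**Figure D3:**
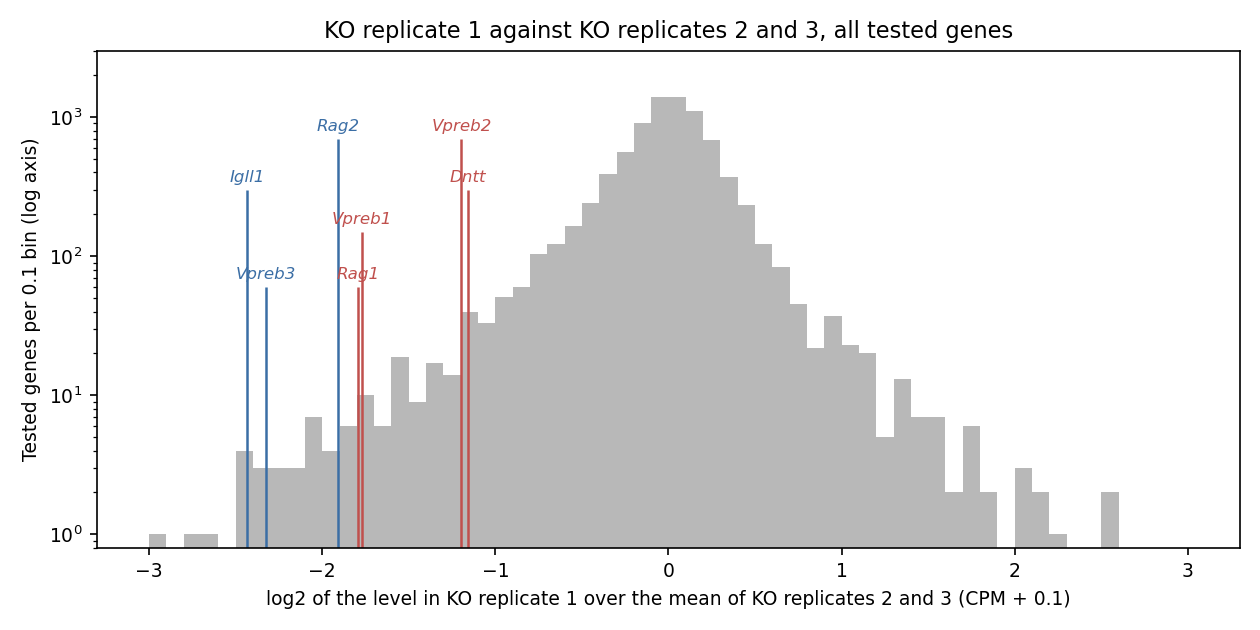
Distribution over tested genes of the log2 ratio of KO replicate 1 to the mean of KO replicates 2 and 3 (CPM plus 0.1, values beyond 3 drawn in the end bins, log count axis), with the 4 genes in red and 3 partner genes in blue. All 7 lie at -1.16 or lower, while the middle range of tested genes is -0.17 to 0.16.

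In a list of 18 genes of the recombinase and of DNA end joining, 11 were in the table and were tested, 9 of them called higher in KO and 2 lower, with a median log2 fold change of 1.72 where all tested genes had -0.06. Without Dntt and Rag1, 7 of 9 were higher and the median was 0.98. Hmgb2, a DNA-bending cofactor of the recombinase that many dividing cells make, rose from 348 ± 31.4 to 2397 ± 292 CPM (SD, n = 3, log2 fold change 2.78, SE 0.12, edgeR, adjusted p = 5.28e-08). Paxx, which acts in end joining, rose by 1.72. The Ku subunit genes split, with Xrcc6 at 0.92 and Xrcc5 at -0.49 and both past the threshold. Atm, the kinase that senses DNA breaks, fell by 1.02. Tdp1 (0.49) was called higher after TMM scaling but not with library size as the only scaling, which left 8 higher and 2 lower in this list. Poll and Polm, the relatives of Dntt that fill gaps during joining, were not analysed here.

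Of 20 genes of the pre-B cell receptor and its signalling, 11 were tested, 8 called higher and 1 lower. The called share is near the 82.0% of all tested genes. The median was 1.39, or 1.11 without Vpreb1 and Vpreb2. Beyond the surrogate light chain and Vpreb3, fold changes lay between -1.11 (Pik3ap1) and 2.74 on the log2 scale. Bank1, a B cell adaptor protein, rose by 2.74, Prkcb, a protein kinase C, by 1.39 and the kinase gene Lyn by 1.11. Btk, the kinase that acts below the pre-B cell receptor, was at 0.11 (adjusted p = 0.283) and Cd79b at 0.57 (adjusted p = 0.112), with overlapping Cd79b values of 49.997, 30.6 and 34.8 CPM in Con and 30.8, 66.7 and 74.0 CPM in KO. The sign of Btk turned with library size only (-0.25, adjusted p = 0.0303), and Dapp1 (0.30) kept its call in neither that scaling nor the upper-quartile one. Cd79a, Blnk, Syk and Ighm were not analysed here.

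Of 23 transcription factors of the B lineage, 10 were tested, 6 called higher and 2 lower (median 0.76). Here too the called share is near the 82.0% of all tested genes. Irf8, a factor of both B cells and myeloid cells, rose from 64.0 ± 0.590 to 354 ± 60.4 CPM (SD, n = 3, log2 fold change 2.47). Ikzf1, which encodes Ikaros, rose by 1.51, and Tcf3, which encodes the E proteins that start the B cell program, by 0.75. Spi1, a factor of myeloid and early B cells, rose by 1.62, while Runx1 fell by 0.86 and Pou2f2 by 0.88. These factors were all present in Con at 28.6 CPM or more, unlike the 4 genes. Pax5, Ebf1 and Foxo1, factors that B cell development depends on, were not analysed here.

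Of 24 genes for receptors and signals of early lymphoid cells, 15 were tested, 8 called higher and 5 lower (median 0.52, or 6 and 5 with a median of 0.16 with library size only). The 13 called of 15 are near the 82.0% called of all tested genes. Flt3, a cytokine receptor of lymphoid and myeloid progenitors and a leukemia gene, rose from 7.68 to 11.4 CPM in Con to 52.9 to 111 CPM in KO (2.97, SE 0.29, edgeR, adjusted p = 1.4e-05). Cd24a, an antigen of B precursors, neutrophils and erythroid cells, rose by 2.93, and the chemokine receptor gene Cxcr4 by 2.23. Il7r, the interleukin-7 receptor that B precursors need in the mouse, went the opposite way to Rag1 and Dntt. It had 231, 367 and 355 CPM in Con and 15.5, 21.7 and 25.4 CPM in KO, and fell by 3.93 on the log2 scale (SE 0.23, edgeR, adjusted p = 5.18e-07). Il2rg, the chain it shares with other cytokine receptors, fell by 2.41. Cytokine signalling genes of this list did not move together. Socs2 and Socs1 fell by 2.42 and 2.38, and Stat5a was at -1.55. Stat5b was called higher (0.52), a call lost with library size only, and Jak3 was at 0.07 (edgeR, adjusted p = 0.73).

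Of 22 mature B cell markers, 13 were tested, 3 called higher and 8 lower (median -1.20). Their called share is near the 82.0% of all tested genes. The summed level of these markers was 378 to 480 CPM in Con and 353 to 460 CPM in KO. The overlap rested on Cd37, the most abundant of them, which had 149 to 163 CPM in Con and 251 to 316 CPM in KO. Without Cd37, a sum added after its values were seen, the other 12 had 227 to 317 CPM in Con and 81.9 to 144 CPM in KO, with no overlap. Much of that sum in turn came from Cd83 (68.1 to 114 CPM in Con, 9.58 to 15.3 CPM in KO) and Cd180 (62.6 to 82.8 and 34.6 to 47.4 CPM). The gap therefore does not describe each marker. Ms4a1 had 25.5, 12.6 and 10.6 CPM in Con and 5.61, 14.2 and 14.9 CPM in KO (-0.50, SE 0.41, edgeR, adjusted p = 0.288), and Cd22 was at -0.18 (adjusted p = 0.511). Cd83, an activation marker that macrophages and dendritic cells also carry, fell by 2.69, Cd40 by 1.98 and Cd180 by 0.88. The complement receptor gene Cr2 rose by 2.51, from levels under 1 CPM, and Cd37 by 0.86. All 4 plasma cell genes tested, of 11 listed, were lower, namely Slamf7 (-4.11), Fkbp11 (-2.53), Prdm1 (-2.34) and Txndc5 (-0.74). Sdc1, Jchain and Xbp1 were not analysed here, and whether the RNA of these 4 genes came from plasma cells was not tested.

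**Figure D4:**
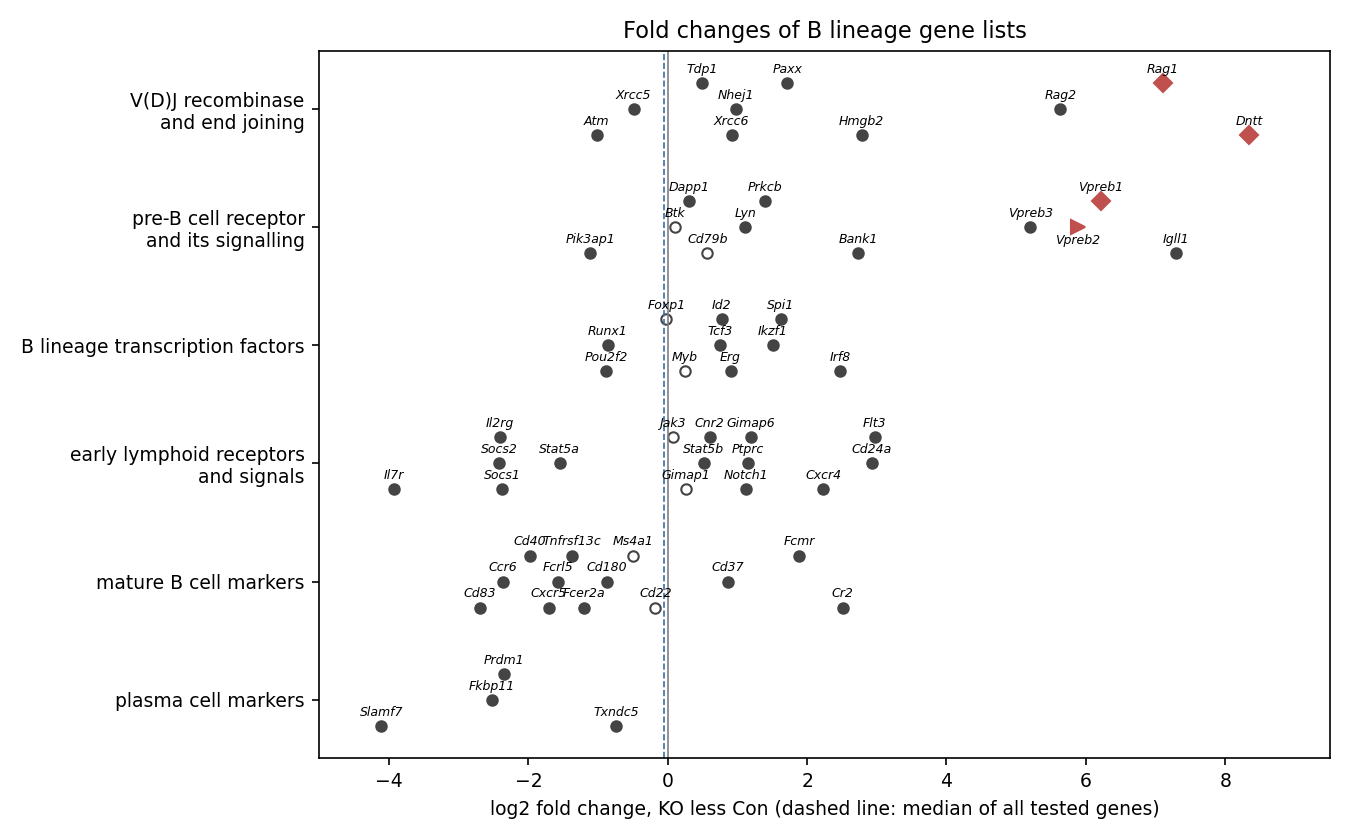
Log2 fold changes (KO less Con) of tested genes reported here from 6 B lineage lists; filled symbols, adjusted p under 0.05; open circles, not past it; red diamonds, Dntt, Rag1 and Vpreb1; red arrowhead, the lower bound of Vpreb2 against 3 Con counts (5.89); dashed line, median of all tested genes (-0.06). The 4 genes, Rag2, Igll1 and Vpreb3 lie at 5.20 or higher, Il7r and Slamf7 lie lowest, and the mature B and plasma cell genes lie mostly below 0.

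Since thymocytes and some plasmacytoid dendritic cells also use Rag1 and Dntt, markers of those cells were read beside them. Of 22 T cell and thymocyte genes 13 were tested, 11 called higher and 2 lower (median 3.79). Their summed level was 111 to 135 CPM in Con and 131 to 212 CPM in KO. This overlap rested on Cd28, which made up 97.3 to 123 CPM of it in Con and 2.80 to 7.72 CPM in KO. Without Cd28, likewise left out after its values were seen, the other 14 genes in the table summed to 12.3 to 14.2 CPM in Con and 128 to 204 CPM in KO, with no overlap. Much of that KO sum came from Cd4 and Cd7. Cd4 rose by 7.37, from at most 0.393 CPM to 34.7, 41.6 and 58.8 CPM, and Cd7 by 5.54, to 38.3, 38.2 and 74.1 CPM. Cd3d rose by 5.18, to 10.2, 9.75 and 9.65 CPM, and Zap70, a kinase of the T cell receptor, by 3.79. Cd28 fell by 4.37 and Cd5, the other gene called lower, by 1.24. The thymocyte gene Ptcra was not analysed here. Of 17 plasmacytoid dendritic cell genes 13 were tested, 9 called higher and 3 lower (median 2.88), with 592 to 656 CPM in Con and 1448 to 1696 CPM in KO in sum. Siglech rose by 9.08, to 133, 121 and 188 CPM, Klra17 rose by 6.36, and Klk1 was at least 114-fold higher. Bst2 and Tlr9, of the same list, fell by 1.40 and 1.53. The part of T cells and dendritic cells in the Rag1 and Dntt values was not tested.

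By level pattern over the 6 libraries, the genes most like the mean of the 4 were Cd209f, C1qc, Igll1, C1qb and Itgad. Likeness was the root-mean-square distance between log2 CPM values centred on each gene's mean, with a prior count of 2. The distances were 0.199, 0.331, 0.336, 0.360 and 0.390, and those of the 4 genes themselves to their own mean were 0.147 for Rag1, 0.583 for Vpreb1, 0.693 for Vpreb2 and 0.801 for Dntt. Cd209f had no count in Con and 7.39, 13.8 and 17.9 CPM in KO, and C1qc had 5.00 to 5.92 CPM in Con and 164, 358 and 294 CPM in KO. Both were lowest in KO replicate 1. The points share their libraries and the group difference, so the measure mostly ranks genes by a like step between groups.

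The start regions of the 4 genes are shown as a description. Each is the 300 bases (250 before to 50 after the start site) that RefSeq gives on GRCm38.p6, read 5′ to 3′ on the gene's strand. The submitters' processing notes name the build GRCh38, a human assembly, so these positions describe the reference and not the deposited counts. Capitals mark the E-boxes CAGCTG and CAGGTG, which E proteins bind, the Ikaros core TGGGAA and the TATA box TATAAA, searched on both strands. The palindromic EBF1 motif was searched too. Dntt lies at chr19:41029025-41029324 (plus strand), Rag1 at chr2:101649483-101649782 (minus), Vpreb1 at chr16:16869206-16869505 (minus) and Vpreb2 at chr16:17980315-17980614 (plus).
Dntt: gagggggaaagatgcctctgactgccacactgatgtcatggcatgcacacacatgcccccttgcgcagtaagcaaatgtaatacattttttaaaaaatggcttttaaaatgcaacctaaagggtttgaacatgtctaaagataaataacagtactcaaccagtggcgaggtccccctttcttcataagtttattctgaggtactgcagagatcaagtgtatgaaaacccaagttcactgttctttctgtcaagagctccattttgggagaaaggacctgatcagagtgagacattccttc
Rag1: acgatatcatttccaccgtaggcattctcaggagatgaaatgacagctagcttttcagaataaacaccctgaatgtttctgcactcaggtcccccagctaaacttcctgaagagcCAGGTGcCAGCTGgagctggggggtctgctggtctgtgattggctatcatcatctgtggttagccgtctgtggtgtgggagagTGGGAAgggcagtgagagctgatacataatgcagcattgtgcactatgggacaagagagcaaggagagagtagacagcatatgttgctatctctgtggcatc
Vpreb1: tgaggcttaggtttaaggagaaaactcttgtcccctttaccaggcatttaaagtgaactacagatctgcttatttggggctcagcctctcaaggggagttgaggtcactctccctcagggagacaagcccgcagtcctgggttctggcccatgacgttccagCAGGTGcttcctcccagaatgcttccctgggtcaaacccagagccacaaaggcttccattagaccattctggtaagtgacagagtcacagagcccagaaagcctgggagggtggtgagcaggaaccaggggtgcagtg
Vpreb2: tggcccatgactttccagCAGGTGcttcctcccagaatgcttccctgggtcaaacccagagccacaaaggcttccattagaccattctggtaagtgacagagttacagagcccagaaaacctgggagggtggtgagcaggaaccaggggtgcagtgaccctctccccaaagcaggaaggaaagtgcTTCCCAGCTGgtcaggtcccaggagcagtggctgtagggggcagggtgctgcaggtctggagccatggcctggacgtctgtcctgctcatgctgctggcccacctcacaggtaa
CAGGTG was found in Rag1, Vpreb1 and Vpreb2 and in 20.2% of all 32851 windows of this length. CAGCTG was found in Rag1 and Vpreb2 (16.3% of windows), and in Vpreb2 it overlaps a TGGGAA on the other strand. TGGGAA was found in Rag1 and Vpreb2 (25.6% of windows). None of the 4 windows held TATAAA (13.6% of windows) or the EBF1 palindrome (0.9%), and none of the searched motifs was found in the Dntt window. The last 156 bases of the Vpreb1 window match the first 156 of the Vpreb2 window with 3 mismatches (98.1% identical), so the copies are alike before their coding part as well. The annotated start site of Vpreb1 lies inside this stretch, and that of Vpreb2 lies beyond its end. A match is a description of letters and does not show that a factor binds there.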

How the data were processed

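RNA of 6 bone marrow libraries (3 Con, 3 KO, grouped by title) was analysed from one table. The authors deposited unscaled estimated counts per gene, per the file headers. Of 9295 genes, 1449 have a count that is not whole, and counts were rounded before tests. For aligner, counter and strand setting, the sources used here give no name. GRCh38 is the build in the submitters' processing notes, although genes carry mouse IDs. Every count column was used (0 left out).

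Genes were tested with edgeR 4.0.16 in R 4.3.3 (TMM, filterByExpr, robust quasi-likelihood, two-sided, no covariate), with Benjamini-Hochberg adjustment over 8358 genes and a threshold of 0.05. The procedure was run on simulated data with far fewer changed genes, split evenly by direction, and a fixed dispersion. That run does not check the scaling or the calls under differences as broad as those here. CPM are counts over TMM-scaled totals. SDs are over 3 libraries, and an SE is the log2 fold change over the square root of its F statistic. Totals of 8875022 to 11436216 counts set the depth. Levels per kb use GENCODE M21 lengths, in place of the protein table planned. Floors and intervals cover counting error only. Alternatives used DESeq2 1.42.0, limma 3.58.1, other scalings and filters, a replicate block, and left-out or summed libraries. Sequences were compared with Biopython 1.88.

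The 4 genes, the 12 gene lists and the naming rule were chosen with earlier results of these data known. The rule names the 4 genes, set B lineage genes, the 4 smallest adjusted p per list and the 5 most alike genes, and some items are not reported here. Any other named gene (Papola, Atm, Xrcc5, Xrcc6, Tdp1, Btk, Dapp1, Runx1, Pou2f2, Socs1, Stat5a, Stat5b, Jak3, Cd3d, Cd5, Bst2, Tlr9, Tfrc, C1qa, Kit, Gata2, Hoxa9, Hoxa10) was chosen after its values were seen.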

Additional observations from a re-analysis of the deposited data

How the results depend on the processing

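Dntt, Rag1, Vpreb1 and Vpreb2 stayed higher in KO and past the threshold in every alternative that gave a value (17, 17, 18 and 16 of them). Their log2 fold changes ranged over 7.995 to 9.26, 6.73 to 7.51, 5.68 to 7.20 and 6.80 to 8.98, and their adjusted p over 2.2e-26 to 0.000192, 5.66e-28 to 0.00135, 6.37e-08 to 0.00228 and 1.08e-10 to 0.000847. The fitted value of Vpreb2 depends on the prior count, since Con has no count, and limma-voom gave 6.80 where edgeR gave 8.61. Vpreb2 did not pass the stricter filter (5 CPM in 3 libraries) and has no value there. With the replicate block the 4 values were 8.33, 7.07, 6.18 and 8.61 and 6766 genes passed in place of 6854. The block lowered the SE of each of the 4 genes, for Dntt from 0.55 to 0.25 and for Rag1 from 0.68 to 0.31. Same-numbered libraries did not deviate together (correlations across genes of -0.00166, 0.0277 and -0.00374). With 3 libraries a group this cannot exclude pairing, and the numbers are read here as names only. With Con replicates 2 and 3 summed as 1 sample, which leaves 2 Con samples, 6557 genes passed. With library size only, 35.7% of called genes were higher in place of 48.3%, and the median of all genes moved from -0.06 to -0.41. Counts of called genes per list stayed within 1.5 times in every alternative except that the stricter filter left 6 called T cell and thymocyte genes in place of 13, because it tests fewer genes. Depth limits the Con values of the 4 genes, which rest on 0 to 10 counts a library.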

Other observations

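The lists of other blood cells, read for the makeup of the libraries, gave the following values. All 18 late neutrophil genes tested were higher in KO (median log2 fold change 6.94), and of 16 erythroid genes 15 were higher and 1, Tfrc, lower (median 5.23). Macrophage genes split into 8 higher and 7 lower (median 0.97), with the complement genes C1qa, C1qb and C1qc at 7.38, 5.98 and 5.65 and Mmp12 and Arg1 at -12.41 and -11.25. Of 13 leukemia progenitor genes 7 were higher and 4, namely Kit, Gata2, Hoxa9 and Hoxa10, lower (median 1.07). Within KO, the 3 complement genes were lowest in replicate 1 (-0.77, -0.83 and -0.99 on the log2 scale relative to replicates 2 and 3), as the B precursor genes were.

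The ratio of Rag1 to Dntt counts in KO replicates 1, 2 and 3 was 0.383, 0.663 and 0.544, and that of Vpreb1 to Dntt 0.383, 0.616 and 0.566. Dntt thus stood higher relative to Rag1 and Vpreb1 in KO replicate 1 than in the other KO libraries, a description with no test.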
